A study of Mus musculus with 20 samples.

Results

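The 7 genes described here encode proteins of the outermost living and cornified layers of the epidermis: repetin (Rptn), filaggrin (Flg), filaggrin 2 (Flg2), hornerin (Hrnr), involucrin (Ivl), caspase 14 (Casp14) and the aspartic protease SASPase (Asprv1). They were taken by symbol from the 22180 genes with an array feature of exactly 1 gene symbol. All 7 were found, each with a single such feature. Abdominal skin of 20 C57/B6 mice aged 9 weeks, housed free of specific pathogens, was hybridised to 1 array per mouse. The labels call the mice biological replicates and place 5 in each of 4 groups: CD mice ate control chow and HFD mice a high fat diet, and each diet group was treated with vehicle or with imiquimod (IMQ), a Toll-like receptor 7 agonist that elicits psoriasis-like inflammation in mouse skin. In all groups the abdomen had been shaved and treated for 5 days, and skin was taken 24 h after the end of treatment. IMQ was given as 62.5 mg per day of a 5% cream (Aldara). No transgene is named. How long the diets were fed is not given in the sources used here. Values are log2 intensities after robust multi-array averaging (RMA), so a difference of 1 is a 2-fold change. Each feature has its own brightness, so levels are compared between groups for 1 gene and not between genes.

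As keratinocytes leave the basal layer and mature in the granular layer, they crosslink proteins beneath the plasma membrane into a cornified envelope and pack keratin filaments with proteins released from keratohyalin granules. Filaggrin, filaggrin 2, hornerin and repetin are S100-fused proteins: an S100-like calcium-binding head is followed by a long run of repeats. Involucrin is an early scaffold of the envelope, SASPase trims profilaggrin, and caspase 14 takes part in breaking filaggrin down into the amino acids that hold water in the stratum corneum.

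In CD-fed mice, Rptn, Flg, Hrnr, Ivl, Casp14 and Asprv1 rose with IMQ and Flg2 fell. Rptn changed most, by 56.8-fold. In HFD-fed mice, Rptn and Casp14 rose, Flg2 fell, and the other members did not pass the test. Without IMQ, 5 members were higher on HFD than on CD, a call made for 1.22% of all genes, and Rptn was higher by 7.1-fold. That count ran from 3 to 5 with each array left out in turn. In a fit of the vehicle groups alone, only Rptn was called. Under IMQ, no member was called between the diets. The IMQ effect on Rptn was smaller in HFD-fed than in CD-fed mice, by 2.94 ± 0.41 on the log2 scale.

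RefSeq places Ivl and the S100-fused genes on chromosome 3, within the epidermal differentiation complex, whereas Asprv1 lies on chromosome 6 and Casp14 on chromosome 10. The protein-coding S100-fused genes follow each other there as Crnn, Flg2, Flg, Hrnr, Rptn, Tchh and Tchhl1. The promoters of Rptn, Flg and Flg2 are shown because they are close neighbours that moved differently. Each sequence holds 300 bases of RefSeq GRCm38.p6, from 250 before the annotated start of the gene to 50 after it, and all lie on the plus strand: chr3:93393449-93393748 for Rptn, chr3:93273296-93273595 for Flg and chr3:93197023-93197322 for Flg2. Capitals mark matches to TGANTCA, a loose form of the AP-1 motif in which N is any base, and to the TATA motif TATAAA.
Rptn: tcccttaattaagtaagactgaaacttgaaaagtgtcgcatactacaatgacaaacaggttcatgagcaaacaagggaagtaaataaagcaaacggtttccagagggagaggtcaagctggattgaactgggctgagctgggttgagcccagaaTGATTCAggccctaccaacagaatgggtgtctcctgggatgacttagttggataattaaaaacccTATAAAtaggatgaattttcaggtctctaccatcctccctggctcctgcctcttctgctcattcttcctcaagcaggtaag
Flg: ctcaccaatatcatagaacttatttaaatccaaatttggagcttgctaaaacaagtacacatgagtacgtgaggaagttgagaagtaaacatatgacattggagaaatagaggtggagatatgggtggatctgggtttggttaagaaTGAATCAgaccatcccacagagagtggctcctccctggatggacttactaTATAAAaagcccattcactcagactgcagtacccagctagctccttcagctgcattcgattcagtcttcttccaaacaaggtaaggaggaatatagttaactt
Flg2: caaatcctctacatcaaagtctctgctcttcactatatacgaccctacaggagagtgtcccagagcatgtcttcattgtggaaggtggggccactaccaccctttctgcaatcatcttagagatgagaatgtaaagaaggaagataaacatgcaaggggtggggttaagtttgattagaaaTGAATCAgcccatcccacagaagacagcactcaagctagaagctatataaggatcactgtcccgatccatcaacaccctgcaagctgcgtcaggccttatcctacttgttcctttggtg

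All 7 members matched a promoter of this table, which holds 32851 sequences of that length. Both strands were searched. This loose AP-1 pattern occurred in 4 of the 7 promoters, against 7.81% of all promoters. Its first base lay 96 bases before the start in Rptn, 103 in Flg, 69 in Flg2 and 116 in Ivl. The base at N was T in Rptn, A in Flg and Flg2, and C in Ivl. The usual AP-1 motif has C or G there, so of these matches only that of Ivl fits it. TGATTCA reads TGAATCA on the opposite strand, so the matches in Rptn, Flg and Flg2 are the same letters. TATAAA occurred in 4 of 7, against 13.6% of all: 31 bases before the start in Rptn, 53 in Flg, 31 in Hrnr and 29 in Ivl. Flg2 held no exact TATAAA in this window, but the similar letters tatataag lie before its start. Only the exact letters were searched, so a TATA box in other letters would be missed. The bases at and around the AP-1 match were more alike among Rptn, Flg and Flg2 than between each of these and Ivl. The counts below include the motif, whose letters other than N are the same in every pair. Over 30 bases, from 5 before the motif to 18 after it, Flg and Flg2 shared 23, Flg and Rptn 18, and Flg2 and Rptn 16, whereas the Ivl window shared 14 with Flg2, 11 with Flg and 10 with Rptn. Against the 2552 other windows around an AP-1 match, the Flg window shared a median of 12 bases and at most 23. This window was chosen after the sequences were seen. Rptn, which rose, Flg, which rose less, and Flg2, which fell, thus all held a match to this loose pattern, with T or A at N.

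The other motifs searched were less common among the members. The grainyhead motif AACCNGTT, named after transcription factors of epithelial barrier formation, occurred in Rptn alone, 197 bases before the start on the minus strand, against 2.09% of promoters. The E-box CACCTG occurred in Hrnr, Asprv1 and Casp14, which is 3 of 7 against 20.2% of promoters. The GC box CCGCCC occurred in Asprv1 alone, against 35.7% of promoters. The STAT motif TTCNNNGAA occurred in 0 of 7, against 8.3% of promoters. These are matches of letters, and binding was not measured.

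Epidermal markers were present on all arrays. The 8 suprabasal keratinocyte markers (Krt1, Krt10, Krtdap, Sbsn, Lor, Dsg1a, Dsc1 and Calm4) had a mean of 7.77 to 9.89 on every array, against array medians of 2.86 to 3.04 over all features. Skin is a mixture of tissues. In such bulk RNA fewer cells of a type and less RNA per cell cannot be told apart. The mean of 7 inner root sheath markers of the growing hair follicle (Krt25, Krt27, Krt28, Krt71, Krt72, Krt73 and Tchh) ranged from 2.94 to 6.39 in CD-vehicle skin and from 7.73 to 10.73 in HFD-vehicle skin. It ranged from 2.85 to 3.45 in CD-IMQ and from 2.77 to 4.72 in HFD-IMQ skin. In these markers 3 arrays lay away from their groups. CD-vehicle mouse 3 had the lowest values of its group for suprabasal (7.77) and inner root sheath (2.94) markers. HFD-vehicle mouse 3 had the lowest suprabasal value of its group (8.86) but the highest inner root sheath (10.73) and hair shaft (8.70) values. HFD-IMQ mouse 1 had an inner root sheath value of 4.72, against 2.77 to 3.0 in the other 4 HFD-IMQ mice. Some results that change are therefore also given without both vehicle mice numbered 3, an alternative chosen after the data were seen. Without HFD-IMQ mouse 1 the calls of the members were as with all arrays, except that Ivl was not called between the diets without IMQ (limma adjusted p = 0.053).

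Repetin is a granular-layer protein of the S100-fused family that becomes crosslinked into the envelope. In CD-vehicle skin its values were 3.96, 5.12, 3.76, 5.77 and 4.75, and in HFD-vehicle skin 7.95, 7.38, 6.63, 8.03 and 7.51. In CD-IMQ skin they were 10.43, 10.44, 10.58, 10.60 and 10.45, and in HFD-IMQ skin 10.65, 10.12, 10.22, 10.20 and 10.76. The levels thus formed 3 steps: every HFD-vehicle mouse lay above every CD-vehicle mouse, every IMQ-treated mouse lay above both, and the IMQ groups overlapped. The spread was widest in CD-vehicle skin (mean 4.67 ± 0.83, SD, n = 5) and narrowest in CD-IMQ skin (10.50 ± 0.08).

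IMQ raised Rptn by 5.83 ± 0.29 in CD-fed mice (log2 ± SE, here and below; limma adjusted p = 9.28e-12, adjusted by Benjamini-Hochberg over all 22180 genes). In HFD-fed mice it raised Rptn by 2.89 ± 0.29, or 7.41-fold (limma adjusted p = 7.55e-07). HFD itself raised Rptn in vehicle-treated mice by 2.83 ± 0.29 (limma adjusted p = 1.16e-05), about as much as IMQ did in HFD-fed mice. Both of these comparisons use the HFD-vehicle mice. Under IMQ the diets differed by -0.11, with a 95% interval from -0.71 to 0.49. Rptn was the only member called in the test of the interaction, that is, of the difference between the IMQ effects on the 2 diets (-2.94, interval -3.78 to -2.09, limma adjusted p = 0.00136). A negative difference, HFD minus CD, was called for 0.189% of all genes, and these include genes that fell more with IMQ on HFD. The call of Rptn held without each of the 20 arrays in turn, with limma adjusted p from 0.000203 to 0.00425.

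**Figure D1:**
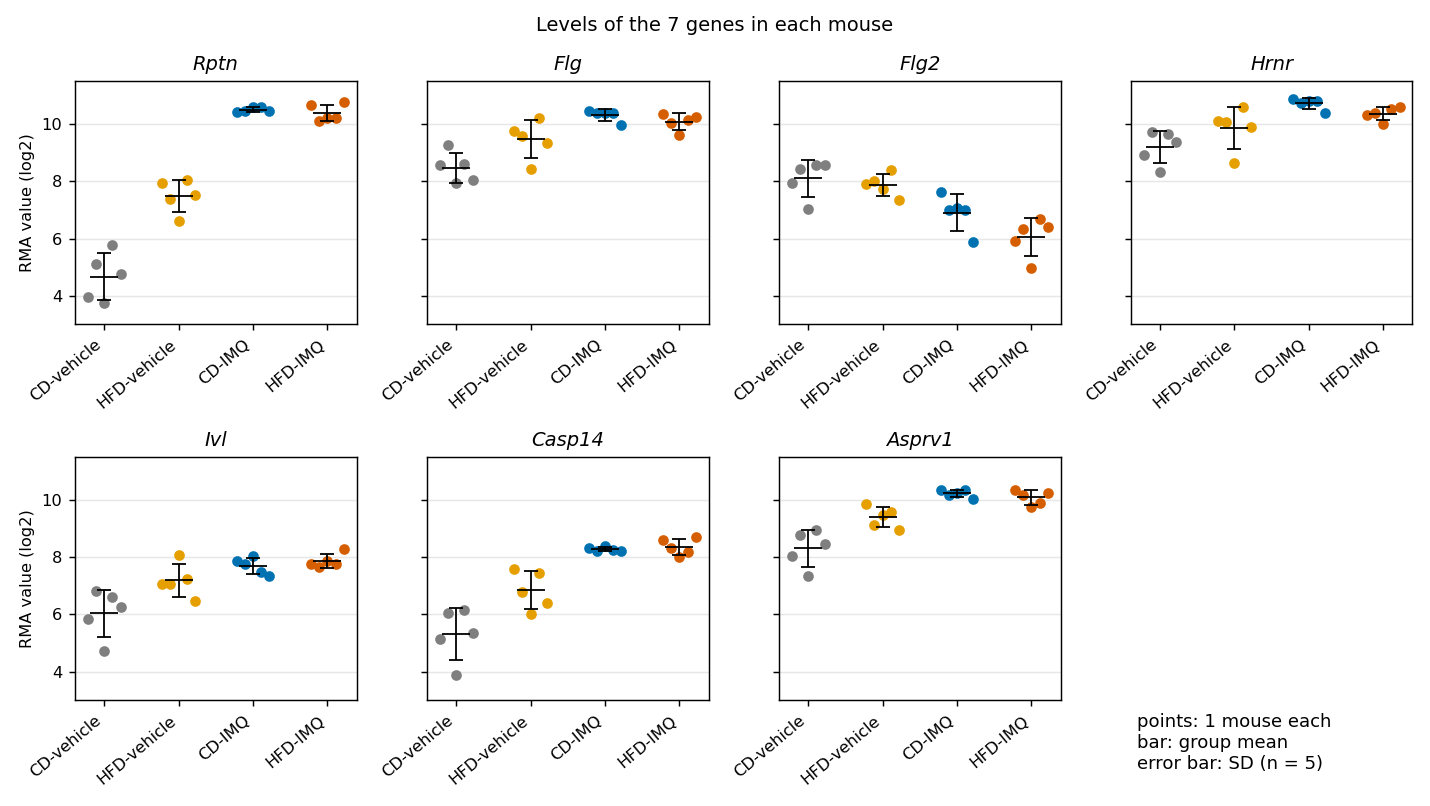
RMA values (log2) of the 7 genes, with 1 point per mouse, the group mean as a horizontal bar and the SD (n = 5) as an error bar, for CD-vehicle, HFD-vehicle, CD-IMQ and HFD-IMQ skin. Rptn climbs in steps from 4.67 to 7.50 and then to above 10 under IMQ on either diet, whereas Flg2 has its lowest mean, 6.06, in HFD-IMQ skin.

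Filaggrin 2 resembles filaggrin in its layout but is a separate gene product of the cornifying layers. Its values were 7.95, 8.44, 7.03, 8.56 and 8.56 in CD-vehicle skin and 7.90, 8.02, 7.72, 8.41 and 7.35 in HFD-vehicle skin. They were 7.61, 6.98, 7.08, 7.0 and 5.88 in CD-IMQ skin and 5.91, 6.35, 4.98, 6.68 and 6.39 in HFD-IMQ skin. The vehicle groups overlapped, CD-IMQ overlapped CD-vehicle only through CD-vehicle mouse 3, and all HFD-IMQ mice lay below all HFD-vehicle mice.

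Flg2 fell by 1.20 ± 0.33 with IMQ in CD-fed mice (2.29-fold lower, limma adjusted p = 0.0192) and fell by 1.82 ± 0.33 in HFD-fed mice (3.52-fold lower, limma adjusted p = 0.000978). Lower calls made up 7.02% of all genes in CD-fed and 2.24% in HFD-fed mice. The call in CD-fed mice rested on single arrays: limma adjusted p was 0.0509 without CD-vehicle mouse 4, 0.0546 without CD-vehicle mouse 5 and 0.07 without CD-IMQ mouse 5, where the change was -0.94. The diets differed by -0.23 without IMQ (95% interval -0.91 to 0.45). Under IMQ they differed by -0.85 (interval -1.52 to -0.17, limma adjusted p = 0.389, unadjusted p = 0.0165), which did not pass the test. The 2 IMQ effects did not differ beyond the error (-0.62 ± 0.46, limma adjusted p = 0.543, and -0.35 without CD-vehicle mouse 3 or HFD-IMQ mouse 3).

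Filaggrin is the main matrix protein that bundles keratin filaments, and its breakdown products moisturise the stratum corneum. Its values in vehicle-treated skin were 8.56, 9.25, 7.94, 8.59 and 8.03 on CD and 9.76, 9.59, 8.43, 10.21 and 9.35 on HFD. Under IMQ they were 10.45, 10.40, 10.37, 10.37 and 9.95 on CD and 10.36, 10.04, 9.61, 10.14 and 10.26 on HFD. In CD-fed mice the treatment groups did not overlap. HFD-vehicle mouse 3, at 8.43, lay among the CD-vehicle mice, while the other 4 lay above all of them.

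Flg rose with IMQ by 1.84 ± 0.26 in CD-fed mice (3.57-fold, limma adjusted p = 4.46e-05). In HFD-fed mice the change was 0.62 ± 0.26 (interval 0.09 to 1.15, limma adjusted p = 0.2), which did not pass, and it was 0.36 without HFD-vehicle mouse 3 (limma adjusted p = 0.483). Without IMQ, Flg was higher on HFD by 0.99 ± 0.26 (1.99-fold, limma adjusted p = 0.0431). This last call was lost without 14 of the 20 arrays taken out in turn, among them CD-vehicle mice 1, 3, 4 and 5 and HFD-vehicle mice 1, 2, 4 and 5, with adjusted p up to 0.138. The difference between the IMQ effects was -1.22 ± 0.36 (limma adjusted p = 0.102). It was called without HFD-vehicle mouse 3 (-1.48, limma adjusted p = 0.0191) and without CD-vehicle mouse 2 (limma adjusted p = 0.0497). The same held with both vehicle mice numbered 3 left out (-1.35, limma adjusted p = 0.0362).

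Hornerin has repeats like those of filaggrin and is also found in the cornified envelope. Its values in vehicle-treated skin were 8.93, 9.71, 8.33, 9.64 and 9.36 on CD and 10.09, 10.08, 8.65, 10.58 and 9.91 on HFD. Under IMQ they were 10.89, 10.73, 10.79, 10.81 and 10.39 on CD and 10.32, 10.39, 9.99, 10.51 and 10.58 on HFD. As for Flg, HFD-vehicle mouse 3 was the only mouse of its group within the range of the CD-vehicle mice.

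Hrnr rose with IMQ by 1.53 ± 0.27 in CD-fed mice (2.88-fold, limma adjusted p = 0.000605), and there the groups did not overlap. Its change in HFD-fed mice was 0.50 ± 0.27 (interval -0.06 to 1.05, limma adjusted p = 0.382), and 0.19 without HFD-vehicle mouse 3 (limma adjusted p = 0.757). Its difference between diets without IMQ was 0.67 ± 0.27 (limma adjusted p = 0.23). Neither of these passed the test. The diet difference was called without HFD-vehicle mouse 3 (0.97, limma adjusted p = 0.0193), and so was the difference between the IMQ effects. The latter was -1.03 with all arrays (limma adjusted p = 0.182) and -1.33 without that array (limma adjusted p = 0.0322). Both were also called with both vehicle mice numbered 3 left out (0.75, limma adjusted p = 0.037, and -1.12, limma adjusted p = 0.0334).

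Involucrin is the rod-like scaffold onto which other envelope proteins and lipids are attached. Its values were 5.82, 6.80, 4.73, 6.60 and 6.26 in CD-vehicle skin and 7.07, 7.06, 8.06, 7.24 and 6.47 in HFD-vehicle skin. They were 7.85, 7.76, 8.03, 7.49 and 7.35 in CD-IMQ skin and 7.76, 7.64, 7.87, 7.77 and 8.28 in HFD-IMQ skin. HFD-vehicle mouse 3 was the highest of its group here, the reverse of its place for Rptn, Flg, Hrnr and Casp14.

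Ivl rose with IMQ by 1.66 ± 0.29 in CD-fed mice (3.15-fold, limma adjusted p = 0.000661), with no overlap. In HFD-fed mice it changed by 0.68 ± 0.29 (limma adjusted p = 0.225), which did not pass. Without CD-vehicle mouse 3 and HFD-vehicle mouse 3 this change was 0.90 and was called (limma adjusted p = 0.00523). The diet difference without IMQ, 1.14 ± 0.29 (limma adjusted p = 0.0443), went the other way: it was lost without 15 of the 20 arrays in turn, CD-vehicle mice 1, 3 and 5 and HFD-vehicle mice 1 to 4 among them, with adjusted p up to 0.132. Without both mice numbered 3 it was 0.59 (limma adjusted p = 0.254). With the replicate block it kept its size but not its call (1.14 ± 0.32, limma adjusted p = 0.0838).

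Caspase 14 is a protease of the cornifying epidermis that acts on filaggrin. Its values were 5.14, 6.05, 3.88, 6.14 and 5.33 in CD-vehicle skin and 7.59, 6.79, 6.02, 7.43 and 6.39 in HFD-vehicle skin. They were 8.33, 8.20, 8.40, 8.24 and 8.22 in CD-IMQ skin and 8.58, 8.31, 8.0, 8.18 and 8.70 in HFD-IMQ skin. As for Rptn, HFD-vehicle skin lay between CD-vehicle and IMQ-treated skin and the IMQ groups overlapped, but the vehicle groups overlapped too, through HFD-vehicle mouse 3.

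Casp14 rose with IMQ by 2.97 ± 0.32 in CD-fed mice (7.84-fold, limma adjusted p = 1.76e-06) and by 1.51 ± 0.32 in HFD-fed mice (2.85-fold, limma adjusted p = 0.00445), without overlap in either diet. Without IMQ it was higher on HFD by 1.53 ± 0.32 (2.9-fold, limma adjusted p = 0.0109). A fit of the 2 vehicle groups alone lost that call (limma adjusted p = 0.103). The difference between its IMQ effects was -1.46 ± 0.45 (interval -2.40 to -0.52, limma adjusted p = 0.114), which did not pass.

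SASPase cuts the linkers of profilaggrin in the granular layer. The Asprv1 values were 8.03, 8.77, 7.32, 8.95 and 8.44 in CD-vehicle skin and 9.84, 9.11, 9.46, 9.57 and 8.95 in HFD-vehicle skin. They were 10.35, 10.17, 10.25, 10.33 and 10.03 in CD-IMQ skin and 10.34, 10.18, 9.75, 9.89 and 10.22 in HFD-IMQ skin. The vehicle groups met at 8.95 without crossing at the precision of the files, and HFD-IMQ overlapped HFD-vehicle.

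Asprv1 rose with IMQ by 1.92 ± 0.22 in CD-fed mice (3.78-fold, limma adjusted p = 4.79e-06). In HFD-fed mice the change of 0.69 ± 0.22 did not pass (limma adjusted p = 0.0764), although it was called without CD-vehicle mouse 3 (limma adjusted p = 0.0154) or HFD-vehicle mouse 1 (limma adjusted p = 0.0452), without both vehicle mice numbered 3 (limma adjusted p = 0.0227), with array weights (0.75, limma adjusted p = 0.027) and in a fit of the 2 groups alone (limma adjusted p = 0.0354). Without IMQ it was higher on HFD by 1.08 ± 0.22 (2.12-fold, limma adjusted p = 0.0101). A fit of the 2 vehicle groups alone lost that call (limma adjusted p = 0.0904). The difference between its IMQ effects was -1.23 ± 0.32 (limma adjusted p = 0.0714). It was called without CD-vehicle mouse 2 (limma adjusted p = 0.0463) or CD-vehicle mouse 4 (limma adjusted p = 0.0312).

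Counted together, 6 of the 7 members were higher with IMQ in CD-fed mice, a call made for 3.91% of all genes tested, and 1 was lower. The groups did not overlap for 6 members, against 8.89% of all genes. The median change of the members was 1.84, beside 0.016 for all genes. In HFD-fed mice 2 members were higher, against 3.65% of genes, 1 was lower, and 3 did not overlap, against 6.06%. The members' median there was 0.68. Without both vehicle mice numbered 3, 5 members were called in HFD-fed mice.

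Without IMQ, 5 of 7 members were higher on HFD, against 1.22% of genes, and 2 did not overlap (Rptn and Asprv1), against 3.94%. The median of the members was 1.08. Without both mice numbered 3, 5 were also called, with Hrnr in place of Ivl. With each array left out in turn the count ran from 3 to 5. Between the diets under IMQ, 0 members were called, against 0% of all genes. By limma at an unadjusted p below 0.05 there were 2289 genes and 1 member, Flg2. No member was called under any other setting tried, and 0 members did not overlap, against 1.67% of genes. The interaction was negative for 7 of 7 members and called for 1. This rose to 3 without CD-vehicle mouse 2 or HFD-vehicle mouse 3, and 2 without CD-vehicle mouse 4. Since the comparisons share groups of mice, the counts are not independent of each other.

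**Figure D2:**
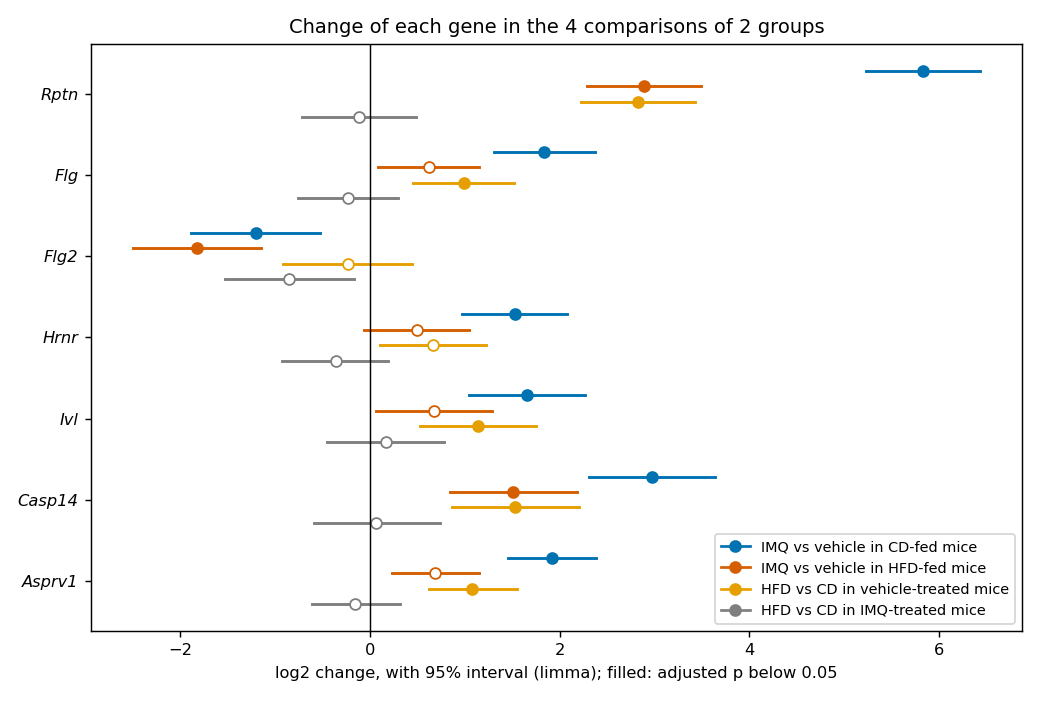
Log2 change of each gene in the 4 comparisons of 2 groups, with 95% intervals from limma and filled points where the adjusted p is below 0.05. The points for IMQ lie farther right on CD than on HFD for all 7 genes, Flg2 lies left of 0 in all comparisons, and the diet difference under IMQ has open points throughout.

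The unequal response of the members was also seen within each array. The value of Rptn minus that of Flg moved by 3.99 with IMQ in CD-fed mice and by 2.27 in HFD-fed mice. It moved by 1.83 between the diets without IMQ, and the groups did not overlap in any of these comparisons. Rptn minus Casp14, the member closest to it, still moved by 2.86, 1.38 and 1.29, again without overlap. Flg minus Hrnr moved by 0.31, 0.12 and 0.33, and its groups overlapped each time. Flg minus Flg2 had group means of 0.36 in CD-vehicle, 1.59 in HFD-vehicle, 3.40 in CD-IMQ and 4.02 in HFD-IMQ skin, with overlap between the vehicle groups. Rptn therefore shifted against each of the other members with IMQ on either diet, Flg and Flg2 moved apart, and the difference of Flg and Hrnr stayed within the spread of the groups. The members were chosen with such results known, so these differences carry no test.

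Mouse-to-mouse variation within the groups was examined next. After subtracting the group means, all 21 pairs of members correlated positively over the 20 mice, with Pearson's r from 0.16 to 0.89. By permutation within groups, with 100000 permutations per pair and Benjamini-Hochberg adjustment over the 21 pairs, 14 passed. Pairs of other genes were not examined, so no share of all pairs stands beside this count. CD-vehicle mouse 3 had the lowest value of its group for every member. Without both vehicle mice numbered 3, r went from 0.66 to 0.39 for Rptn and Flg and from 0.60 to 0.43 for Flg2 and Casp14. It rose for other pairs, as from 0.66 to 0.82 for Flg2 and Hrnr. Rptn and Casp14 were closest (r = 0.89, adjusted permutation p = 0.00206; Spearman's rho = 0.88, adjusted permutation p = 0.00163), although they lie on different chromosomes. Their r was 0.85 without the 2 mice farthest from the median of Rptn, 0.89 over the vehicle-treated mice and 0.83 over the IMQ-treated mice. The raw permutation p was 0.00037 for r and 0.00018 for rho.

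Casp14 and Asprv1 followed (r = 0.87, rho = 0.89, adjusted permutation p = 0.00332 and 0.00163, raw 0.00095 and 9e-05), with r = 0.72 without the 2 farthest mice. The neighbours Flg and Hrnr had r = 0.86 and rho = 0.76 (adjusted permutation p = 0.00206 and 0.00346, raw 0.00041 and 0.00099), and r = 0.76 without the 2 farthest. Flg2 fell with IMQ while Hrnr rose, yet within the groups they varied together (r = 0.66, rho = 0.76, adjusted permutation p = 0.00206 and 0.00163, raw 0.00049 and 0.00031). Their r was 0.54 without the 2 farthest mice, 0.71 among vehicle-treated and 0.96 among IMQ-treated mice. Mice with more Hrnr for their group thus also had more Flg2.

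Involucrin stood apart from filaggrin and hornerin in these deviations. For Flg and Ivl, r was 0.16 and rho 0.28 (adjusted permutation p = 0.626 and 0.289, raw 0.626 and 0.289), and r was 0.42 without the 2 farthest mice. For Hrnr and Ivl, r was 0.24 and rho 0.39 (adjusted permutation p = 0.48 and 0.156, raw 0.457 and 0.141). Without both vehicle mice numbered 3, r was 0.57 for Flg and Ivl and 0.75 for Hrnr and Ivl, so the low values rested on those mice. The level of hair follicle markers and of suprabasal markers differed between those mice and the rest of their groups, and its part in these correlations was not tested.

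**Figure D3:**
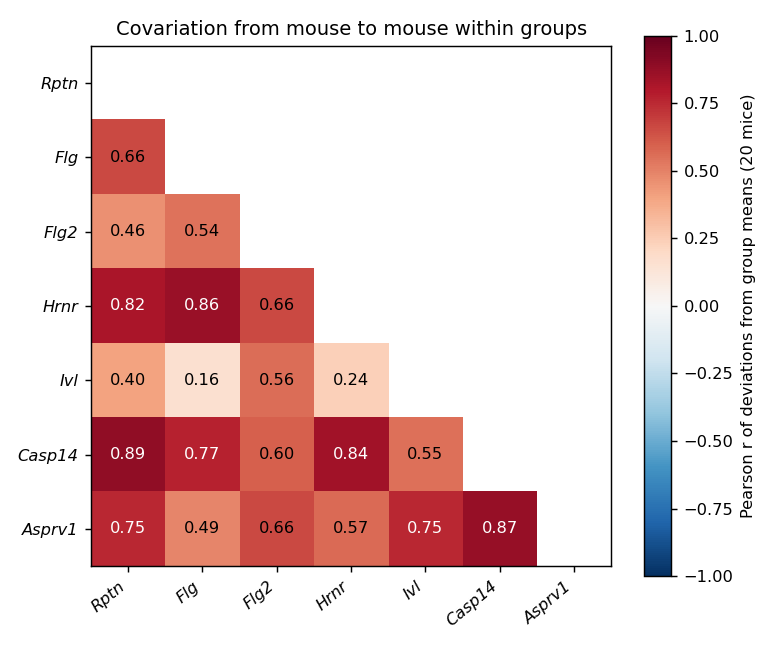
Pearson's r between each pair of the 7 genes over 20 mice, after each group's mean was subtracted, on a colour scale from -1 to 1. All squares are positive, from 0.16 for Flg and Ivl to 0.89 for Rptn and Casp14.

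Genes with the most similar pattern were sought for each member among all genes tested, by the root mean square difference over the 20 arrays after centring each gene. The nearest to Rptn were Serpinb3a and Sprr2d at 0.55 and Stfa1 at 0.65, and no other member came nearer to it than Casp14 at 1.18. Serpinb3a encodes a serine protease inhibitor family member, Sprr2d a small proline-rich envelope protein and Stfa1 a cysteine protease inhibitor. The mean of Sprr2d was 1.97 in CD-vehicle, 4.25 in HFD-vehicle, 7.70 in CD-IMQ and 8.24 in HFD-IMQ skin, in 3 steps like those of Rptn.

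Flg was nearest to Calm4 (0.24), a calmodulin-like protein of skin, to the suprabasal keratin Krt1 (0.26) and to Lce1f (0.30). Hrnr was nearest to Kprp (0.25), Calm4 (0.27) and the lipoxygenase Alox12b (0.28). Flg and Hrnr were themselves the closest pair of members, at 0.28. Ivl was nearest to the desmosomal cadherin Dsc1 (0.21), the kallikrein Klk7 (0.23) and the ceramide synthase Cers3 (0.27).

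Casp14 was nearest to Il1f8 (0.26), Serpinb12 (0.28) and Il1f5 (0.33). Il1f8 is an IL-36 cytokine and Il1f5 the IL-36 receptor antagonist. Asprv1 was nearest to Tprg (0.22), the lipid transporter Abca12 (0.23) and Klk7 (0.24). Flg2, farthest of all from Rptn (3.18), was nearest to Lce1m (0.33), Skint9 (0.34) and Rarres1 (0.39). The Lce1m mean was 6.96 in CD-vehicle and 5.24 in HFD-IMQ skin, a comparison that rests on the brightest of its array features.

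Enzymes that process profilaggrin and break filaggrin down, with the kallikrein inhibitor Spink5, were taken as a list of 14 genes, of which 12 were measured here. In CD-fed mice 8 of 12 rose with IMQ and 1 fell, against 3.91% and 7.02% of all genes. The median change was 0.80, beside 0.016 for all genes. Those that rose are described first. They included bleomycin hydrolase Blmh (1.38 ± 0.12, limma adjusted p = 4.6e-08) and Ggct (1.19 ± 0.14, limma adjusted p = 5.36e-06), which act on filaggrin-derived peptides and amino acids. The membrane proteases Tmprss13 (1.29 ± 0.18) and Prss8 (1.15 ± 0.24) rose too. So did the inhibitor Spink5 (0.84 ± 0.21), named after its value was seen. The gene that fell, Pcsk6 (-0.45 ± 0.12), a proprotein convertase, was named after its value was seen, and its call was lost without CD-vehicle mouse 3, CD-vehicle mouse 5 or CD-IMQ mouse 5.

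In HFD-fed mice 3 of the 12 rose with IMQ and 2 fell, against 3.65% and 2.24% of all genes, with a median of 0.27. Blmh rose by 0.82 ± 0.12 and Ggct by 0.61 ± 0.14 (limma adjusted p = 9.96e-05 and 0.00836). The arginine deiminase Padi3 fell by 2.37 ± 0.38 (limma adjusted p = 0.000274) and the membrane protease St14, which activates Prss8, by 1.04 ± 0.30 (limma adjusted p = 0.0399). The call of St14 was lost with the replicate block (-1.04 ± 0.32, limma adjusted p = 0.0735), with array medians subtracted, with a trend and robust prior and in a fit of the 2 groups alone. Lower calls numbered 1 without HFD-vehicle mouse 1, 2 or 3, or HFD-IMQ mouse 1, 2, 3 or 5. Padi3 is also active in the hair follicle, and the inner root sheath markers given above fell in the same comparison, all 7 of them. The part of the follicle in the change of Padi3 was not tested.

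Without IMQ, 6 of the 12 were higher on HFD, against 1.22% of all genes, and 0 lower, with a median of 0.52. Padi3 was higher by 1.98 ± 0.38, St14 by 1.12 ± 0.30, Prss8 by 1.01 ± 0.24 and Tmprss13 by 0.75 ± 0.18 (limma adjusted p from 0.00603 to 0.049). These calls were not stable. None of the 6 was called in a fit of the 2 groups alone, where limma adjusted p ran from 0.0568 for Blmh to 0.179 for St14, and 3 were called with the replicate block or with array medians subtracted. The count was 2 without CD-vehicle mouse 3, HFD-vehicle mouse 1 or HFD-vehicle mouse 3, and 3 without CD-vehicle mouse 5. It was also 2 with both vehicle mice numbered 3 left out. St14 was then 0.53 (limma adjusted p = 0.262), Prss8 0.59 (limma adjusted p = 0.151) and Tmprss13 0.54 (limma adjusted p = 0.212). Under IMQ the diets differed for 0 of the 12.

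The envelope and keratin scaffold was described by 27 genes. In CD-fed mice 21 of 27 rose with IMQ and 1 fell, against 3.91% and 7.02% of all genes, with a median of 1.01. Sprr1b, a small proline-rich envelope precursor, rose by 4.19 ± 0.21 (limma adjusted p = 9.28e-12), Cnfn by 2.35 ± 0.24, the crosslinking transglutaminase Tgm3 by 2.27 ± 0.30 and Lce1f by 2.16 ± 0.26. The gene that fell was Lce1m (-1.02 ± 0.24, limma adjusted p = 0.00703), the nearest neighbour in pattern of Flg2. It lay outside the 4 largest changes and was named after its value was seen.

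In HFD-fed mice 7 of the 27 rose with IMQ and 1 fell, again Lce1m (-1.28 ± 0.24, limma adjusted p = 0.00152), with a median of 0.39. Of all genes 3.65% rose and 2.24% fell there, and 1.22% were higher on HFD without IMQ. Lce1m has more than 1 array feature, and over their mean its change was -0.30 in CD-fed mice (limma adjusted p = 0.391) and -0.60 in HFD-fed mice (limma adjusted p = 0.0777), neither of them called. Sprr1b rose by 2.48 ± 0.21, Tgm3 by 1.36 ± 0.30 and Cnfn by 1.05 ± 0.24. Without IMQ 8 were higher on HFD and 0 lower, with a median of 0.62, among them Sprr1a (2.31 ± 0.39), Sprr1b (2.18 ± 0.21), Cnfn (1.50 ± 0.24) and Krt1 (1.25 ± 0.24). That count was 4 in a fit of the 2 groups alone, where Sprr1a (limma adjusted p = 0.0506) and Krt1 (limma adjusted p = 0.0735) were not called. The interaction was called for Sprr1b alone (-1.72 ± 0.29, limma adjusted p = 0.00916). Calls rose to 3 without CD-vehicle mouse 4, to 4 without HFD-vehicle mouse 3 and to 2 without HFD-vehicle mouse 5.

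The S100-fused neighbours of the members behaved otherwise. Trichohyalin (Tchh) is the protein that stiffens the inner root sheath, Tchhl1 its relative and cornulin (Crnn) a gene of squamous epithelia. Tchh averaged 6.06 ± 2.44 (SD, n = 5) in CD-vehicle skin, 9.95 ± 0.84 in HFD-vehicle, 2.75 ± 0.42 in CD-IMQ and 3.02 ± 1.71 in HFD-IMQ skin. Crnn averaged 3.26 ± 0.37, 5.45 ± 1.57, 2.82 ± 0.16 and 3.0 ± 0.38 in the same order. Tchhl1 averaged 2.28 ± 0.25, 5.73 ± 2.09, 2.70 ± 0.48 and 3.05 ± 0.35. These genes were highest in HFD-vehicle skin and near the bottom of the scale under IMQ, where Rptn, Flg and Hrnr had their highest means. Tchhl1 and Crnn were also low in CD-vehicle skin. Neither was called with IMQ in CD-fed mice (0.42 and -0.44, limma adjusted p = 0.725 and 0.611).

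All 3 neighbours were higher on HFD without IMQ, a call made for 1.22% of all genes. Tchh was higher by 3.89 ± 0.84, Tchhl1 by 3.45 ± 0.59 and Crnn by 2.19 ± 0.45 (limma adjusted p = 0.0145, 0.00242 and 0.00992). With IMQ in HFD-fed mice Tchh fell by 6.93 ± 0.84, Tchhl1 by 2.67 ± 0.59 and Crnn by 2.45 ± 0.45. In a fit of the 2 vehicle groups alone none of the 3 was called (limma adjusted p = 0.0697 for Tchh, 0.0547 for Tchhl1 and 0.0979 for Crnn), and with a mean-variance trend and robust prior Tchh was not (limma adjusted p = 0.0522). In the matching 2-group fit of HFD-fed mice Tchhl1 was not called (limma adjusted p = 0.0575). In CD-fed mice Tchh alone fell, by 3.31 ± 0.84 (limma adjusted p = 0.012). The 7 inner root sheath markers, of which Tchh is 1, were all higher on HFD without IMQ, as were 5 of the 7 members. Under IMQ those markers were low on either diet, with 7 of 7 lower in HFD-fed and 5 of 7 in CD-fed mice, where 6 members rose. The part of hair follicle RNA in the diet difference of the members was not tested.

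**Figure D4:**
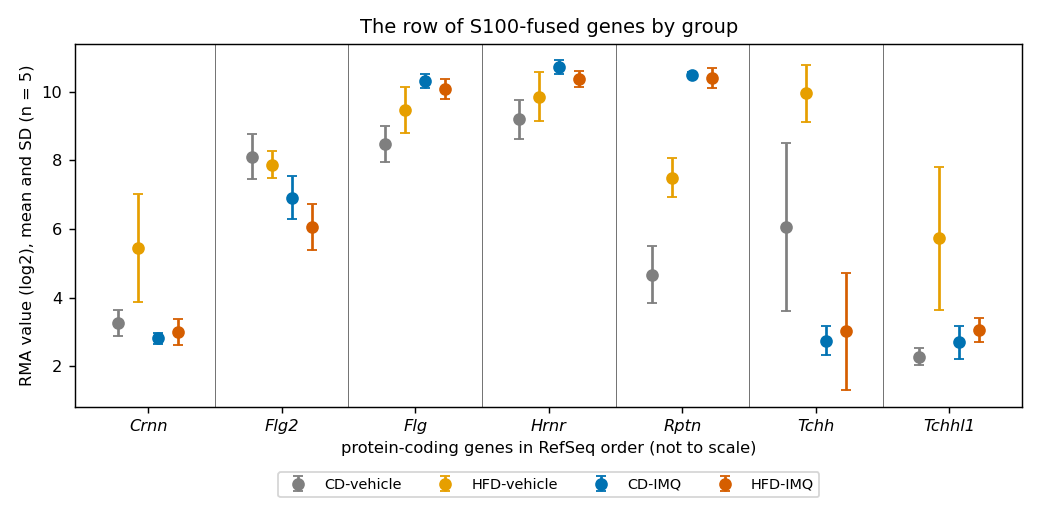
Group means and SD (n = 5) of RMA values (log2) for the S100-fused genes in RefSeq order along chromosome 3, in the 4 groups. Rptn has its highest means under IMQ (10.50 and 10.39) while the adjacent Tchh has its highest mean in HFD-vehicle skin (9.95), and heights of different genes are not comparable since each has its own array feature.

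Suprabasal markers moved the same way as most members. Their mean was 8.59 ± 0.48 (SD, n = 5) in CD-vehicle, 9.20 ± 0.26 in HFD-vehicle, 9.69 ± 0.16 in CD-IMQ and 9.64 ± 0.20 in HFD-IMQ skin. Of the 8, 6 rose with IMQ in CD-fed mice, 2 rose in HFD-fed mice and 3 were higher on HFD without IMQ. The basal keratinocyte mean, over 7 of 8 markers measured, lay between 6.14 and 6.32 in the 4 groups, but its genes moved in opposite directions. With IMQ in CD-fed mice the basal keratin Krt14 rose by 1.95 ± 0.23 (limma adjusted p = 5.43e-06), while Dst, which anchors keratin filaments at the basement membrane, fell by 1.06 ± 0.13 (limma adjusted p = 1.06e-05) and Krt15 fell by 1.01 ± 0.24 (limma adjusted p = 0.00854). In HFD-fed mice Krt15 fell by 1.67 ± 0.24 (limma adjusted p = 9.77e-05) and Krt14 rose by 0.95 ± 0.23 (limma adjusted p = 0.0127). Leukocyte markers averaged 6.28 and 6.07 in the vehicle groups and 6.76 and 6.96 in the IMQ groups (CD, then HFD), with 4 of 8 called higher with IMQ on CD and 6 of 8 on HFD. Fibroblast markers averaged 10.24 without and 9.62 with IMQ on CD, with 5 of 6 lower, and 10.17 and 9.76 on HFD, with 1 of 6 lower. Sebaceous gland markers averaged 8.32 without and 8.10 with IMQ on CD, with 1 of 6 lower and 1 higher, and 8.68 and 7.25 on HFD, with 4 of 6 lower. Adipocyte markers averaged 8.47 and 7.39 on CD, with 2 of 6 lower, and 8.25 and 7.80 on HFD, with 1 of 6 lower. The part of these shifts in the changes of the members was not tested.

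Regulators of terminal differentiation, mostly transcription factors but also the receptor Notch1, were taken as a list of 20, of which 18 were measured. In CD-fed mice 3 rose with IMQ and 2 fell, against 3.91% and 7.02% of all genes, with a median of 0.02. Grhl3, a grainyhead-like factor of the epidermal barrier, rose by 1.03 ± 0.19 (limma adjusted p = 0.000748), Prdm1 by 0.71 ± 0.16 and Ppard by 0.55 ± 0.13. Arnt fell by 0.63 ± 0.11 and Klf4, named after its value was seen, by 0.47 ± 0.15 (limma adjusted p = 0.0389). Klf4 is a factor required for the skin barrier. The lower count was 1 without CD-vehicle mouse 1, 2 or 3 or CD-IMQ mouse 2, 3, 4 or 5. Klf4 was also not called after a further quantile normalisation (limma adjusted p = 0.101), with array weights or in a fit of the 2 groups alone.

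In HFD-fed mice 3 of the 18 rose with IMQ and 3 fell, against 3.65% and 2.24% of all genes, with a median of 0.09. Grhl3 rose by 0.98 ± 0.19, whereas the vitamin D receptor Vdr fell by 1.34 ± 0.24, Gata3 by 0.80 ± 0.16 and Notch1 by 0.63 ± 0.16. The higher count was 1 without HFD-vehicle mouse 2. Without IMQ, Vdr (1.30 ± 0.24) and Grhl1 (0.85 ± 0.22) were higher on HFD and Klf4 lower (-0.55 ± 0.15). Higher calls made up 1.22% of all genes there. Neither Grhl1 (0.43, limma adjusted p = 0.283) nor Klf4 (-0.53, limma adjusted p = 0.181) was called with both vehicle mice numbered 3 left out. The counts of this list without IMQ and in the interaction, where Arnt was called (0.69 ± 0.16, limma adjusted p = 0.0467), changed with most arrays left out. With the replicate block neither Grhl1 (limma adjusted p = 0.0711) nor Arnt (limma adjusted p = 0.087) was called, and in a fit of the 2 vehicle groups alone 0 of the 18 were called between the diets. Of the regulators, Grhl3 and Ppard (0.49 ± 0.13 in HFD-fed mice, named after its value was seen) rose with IMQ on both diets, as Rptn and Casp14 did.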

How the data were processed

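RNA from abdominal skin of 20 mice was measured on 1 Affymetrix array each. Per the labels, 300 ng of Trizol-extracted total RNA was labelled with biotin as DNA (GeneChip WT PLUS). The deposited values are log2 intensities made by RMA with the affy package, per the submitters' processing notes. For versions, scan batches, the genome build and joint or separate normalisation, the sources used here give no statement.

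Of 41345 features, 23521 had 1 gene symbol, 1814 several and 16010 none. A gene was represented by its single-symbol feature of highest mean over the 20 arrays, which gave 22180 genes. RefSeq changed 0 symbols among the 23328 single-symbol features that it matched. Dim genes were kept. Probe sequences were not examined, so cross-hybridisation among the repeat-rich members was not tested.

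Group means were fitted over all 20 arrays with limma 3.58.1 (lmFit, eBayes) in R 4.3.3, and a call needs a Benjamini-Hochberg adjusted p below 0.05 over all genes. Errors are SE for changes and SD for group means, and the number of arrays, 5 per group, limits the precision. Correlations used permutation within groups in Python 3.11.15 with scipy 1.17.1. Replicate numbers were not treated as pairs. Deviations from the group means correlated above 0.1 in 4 of 30 same-numbered comparisons of arrays (range -0.217 to 0.32). Differently numbered arrays were not compared, so this does not settle whether the numbers mark a shared factor. The alternatives were other normalisations, a filter on dim genes, feature means, other variance priors, array weights, 2-group fits, a replicate block and leaving out arrays. The fit was tested on simulated data.

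The members and the gene lists were chosen with earlier results of these data known. Named list genes are the up to 4 called genes of a list with the largest change in a comparison, and others are said to have been named after their values were seen. The nearest patterns leave out members, predicted genes, small RNAs and receptor families. Promoters come from RefSeq GRCm38.p6.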

Additional observations from a re-analysis of the deposited data

Results flagged for a closer look

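Among 28 combinations of a member and a group, 1 held a mouse that stood apart: Flg in CD-IMQ mouse 5 was 9.95, below the other 4 mice at 10.37 to 10.45. Its gap to the nearest mouse was 0.836 of the range of the group, above Dixon's 95% critical value of 0.71 for 5 mice. Chance gives a gap above that critical value in about 1 in 20 groups, and 28 combinations were searched. The same mouse also had the lowest Hrnr (10.39), Flg2 (5.88), Ivl (7.35) and Asprv1 (10.03) of its group, but not the lowest Rptn or Casp14. Its mean of the suprabasal markers (9.47) was the lowest of its group too.

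The IMQ effect on Rptn differed between the diets by the test of the difference itself, with HFD minus CD at -2.94 (limma adjusted p = 0.00136). The levels were 4.67 and 10.50 without and with IMQ on CD, and 7.50 and 10.39 on HFD.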

How the results depend on the processing

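The 35 changes of members were refitted under 9 other settings and without each of the 20 arrays, which gave 1008 values: 950 kept their direction and their side of the threshold, 41 lost a call, 16 gained one and 1 reversed. Every call of Rptn held under all of them. Many of these values could hardly differ. An array left out from outside a comparison of 2 groups leaves the change itself as it was, and only its error and adjusted p can move. With IMQ in CD-fed mice 6 to 7 members were called with an array left out. In HFD-fed mice 3 members were called, 3 to 4 with an array left out, 4 with array weights or in a fit of the 2 groups alone, and 5 without both vehicle mice numbered 3. For HFD against CD without IMQ the 5 calls became 3 with a mean-variance trend and robust prior and 1 (Rptn) in a fit of the 2 groups alone, and ran from 3 to 5 with an array left out. The 1 member called in the interaction became 2 with array weights and 3 without both vehicle mice numbered 3, and ran from 1 to 3 with an array left out. For Casp14 under IMQ the diet difference turned from 0.07 to -0.01 without HFD-IMQ mouse 5 (range -0.01 to 0.16), neither of them called. The cause of these changes was not tested. With the replicate block 7, 3, 4, 0 and 1 members were called in the 5 comparisons. The block changed the call of Ivl between diets without IMQ (1.14, limma adjusted p = 0.0838) and no other call of a member. The mean of a gene's features leaves the members unchanged, since each has 1 feature. The interaction spans 4 groups and has no fit of 2 groups alone. Signal over background is not in the values used, so a floor cannot be set for dim values.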
